A study of Mus musculus with 20 samples.

Results

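The 2 strands of miR-126, miR-126-3p and miR-126-5p, were followed through lung, heart, kidney, liver and spleen of klotho(-/-) mice and wild-type littermates. The members were the probes that bear either name on a DNA chip for mouse miRNAs, 2 of 200 probes. The mice were male and 5 weeks old, and the klotho(-/-) animals lack a transmembrane protein whose loss gives a short life and features of early ageing. There were 2 arrays per tissue and genotype, 20 in all, which came from different individual mice by the study's legend, so the small number of arrays limits the precision of every value. The loss is present in the whole body and no cells were sorted, so each array holds the RNA of all cell types of a tissue.

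miR-126 is a miRNA of endothelial cells, the cells that line blood vessels, and its hairpin lies within Egfl7, a gene for a protein that endothelial cells secrete. Dicer cuts the hairpin into a short duplex whose strands can each be loaded into an Argonaute protein, where bases 2 to 8, the seed, pair with target mRNAs. miR-126-3p is known to repress Spred1 and Pik3r2, inhibitors of signalling downstream of VEGF, and its loss in mice gives leaky vessels. miR-126-5p is known to repress Dlk1, an inhibitor of Notch signalling, and to maintain the proliferation of endothelial cells. In whole tissue, fewer endothelial cells and less miR-126 per endothelial cell cannot be told apart.

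The sequence of the abundant strand is shown because all ratios below take it as numerator, with the seed in capitals. It was found for 1 of the 2 members in RefSeq (GRCm38.p6, chr2:26591402-26591423, plus strand). The entry not matched was miR-126-5p. The antisense locus Mir126b lies opposite it (chromosome 2, 26591363 to 26591420), and its 5p product (chr2:26591399-26591420, minus strand) is shown for comparison.
mmu-miR-126a-3p: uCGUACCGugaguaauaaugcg
mmu-miR-126b-5p: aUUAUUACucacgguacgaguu

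Over 19 bases in a row miR-126b-5p is the reverse complement of miR-126a-3p, so a probe for the latter carries the bases of the former. The chip held no probe named for miR-126b. miR-126a-3p covers bases 46 to 67 of the 73-base hairpin, which lies on chromosome 2 from 26591357 to 26591429, inside the Egfl7 gene (26581083 to 26592682). Of 1679 mature miRNA names in the RefSeq table, 1 carried the seed CGUACCG, that of miR-126a-3p itself. No other probe on the chip could thus be grouped with it by a shared seed.

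The summed background-subtracted signal of an array ran from 4162 to 57568, and 52 to 113 probes reached a signal of 10. The chip has no probe for klotho mRNA, so the genotype labels were not checked. For liver and heart the tissue labels were checked against defining markers. miR-122a, the hepatocyte miRNA, took 37.7 to 39.5% of the summed signal in liver and at most 0.113% elsewhere. The 5 probes for striated muscle miRNAs took 35.8 to 41.2% in heart and at most 1.15% elsewhere. Both klotho(-/-) spleen arrays stood apart from each other, with a correlation of 0.778 over tested probes against 0.937 to 0.995 in the other 9 groups.

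miR-126-3p was brightest in lung and was measured in every tissue. Its deposited signal in lung was 3435 and 2934 on the klotho(-/-) arrays and 2765 and 1494 on the wild-type arrays. It was the brightest of all 200 probes on both klotho(-/-) lung arrays, and ranked 3 and 2 on the wild-type ones. In heart its signals were 749 and 518 in klotho(-/-) and 555 and 583 in wild-type. Heart arrays thus all lay below the dimmest lung array, with ranks of 9 to 13.

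In kidney miR-126-3p gave 325 and 261 in klotho(-/-) mice and 195 and 215 in wild-type mice. In liver it gave 97 and 72 in klotho(-/-) mice and 36 and 48 in wild-type mice. In these 2 organs the dimmer klotho(-/-) array was still brighter than either wild-type array, as was so for 78% of the probes tested in kidney and 82% of those in liver. In lung, where miR-126-3p was likewise apart, the share was 32.7%. In spleen it gave 95 and 49 in klotho(-/-) mice and 89 and 44 in wild-type mice, and the genotypes overlapped.

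**Figure D1:**
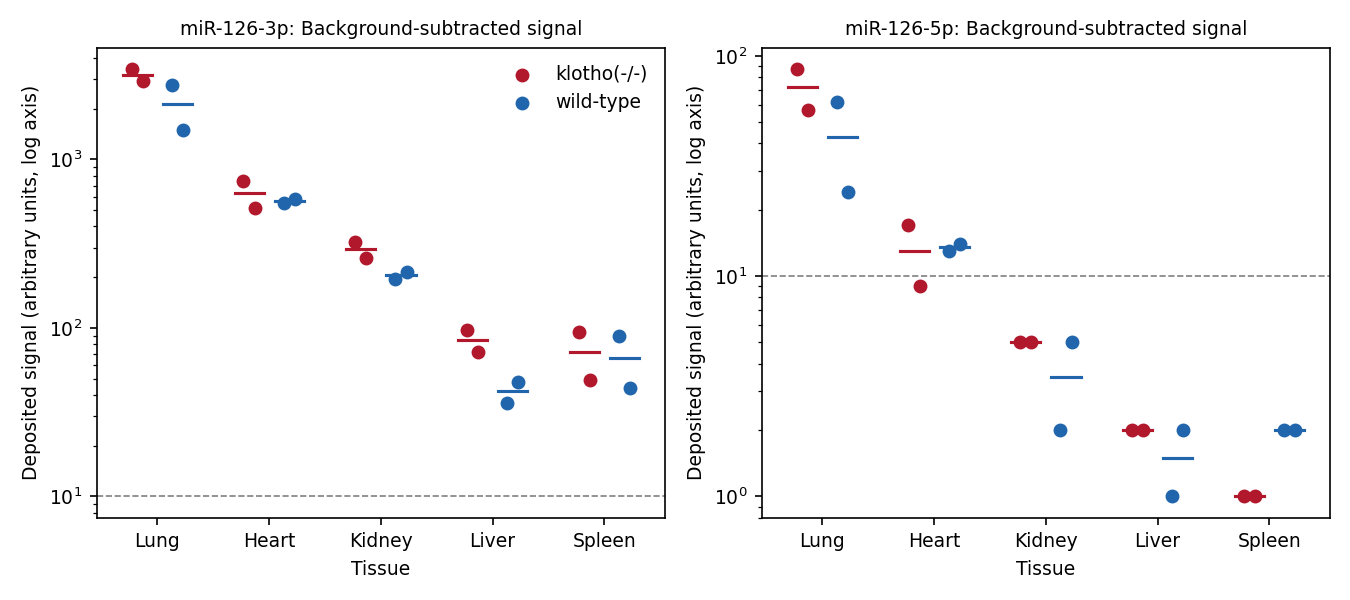
Background-subtracted signal (arbitrary units, log axis) of miR-126-3p (left) and miR-126-5p (right) on each of 20 arrays by tissue, klotho(-/-) in red and wild-type in blue. Points are arrays, short lines are means of 2, and the dashed line marks a signal of 10, which miR-126-5p reached on 7 arrays.

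miR-126-5p was a dim probe. In lung its deposited signal was 87 and 57 in klotho(-/-) mice and 62 and 24 in wild-type mice. In heart it was 17 and 9 in klotho(-/-) mice and 13 and 14 in wild-type mice. Lung and heart were the tissues in which its mean signal reached the minimum of 10 that was required for a genotype test, and all lung arrays lay above all heart arrays.

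Elsewhere miR-126-5p lay at the edge of measurement. In kidney its signals were 5 and 5 in klotho(-/-) mice and 2 and 5 in wild-type mice. In liver and spleen all 8 arrays read 1 or 2. With 1 kidney array these make 9 arrays on which miR-126-5p stood at the lowest value of the deposited table, a floor of 1 or 2 on these arrays that many other probes share. Values at this floor have no order.

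Since the summed signal differed between tissues, miR-126-3p was also expressed as a share of it. miR-126-3p took 5.75% ± 0.272 (SD, n = 4 arrays of both genotypes) in lung and 2.37% ± 0.13 in heart. The share was 1.46% ± 0.0868 in kidney, 0.882% ± 0.0282 in liver and 0.735% ± 0.187 in spleen. By share, no array of lung, heart or kidney overlapped with an array of another tissue, whereas liver (0.853 to 0.912%) lay within the range of spleen (0.601 to 1.01%). The share of miR-126-5p was 0.120% ± 0.0242 in lung and 0.0517% ± 0.00696 in heart.

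**Figure D2:**
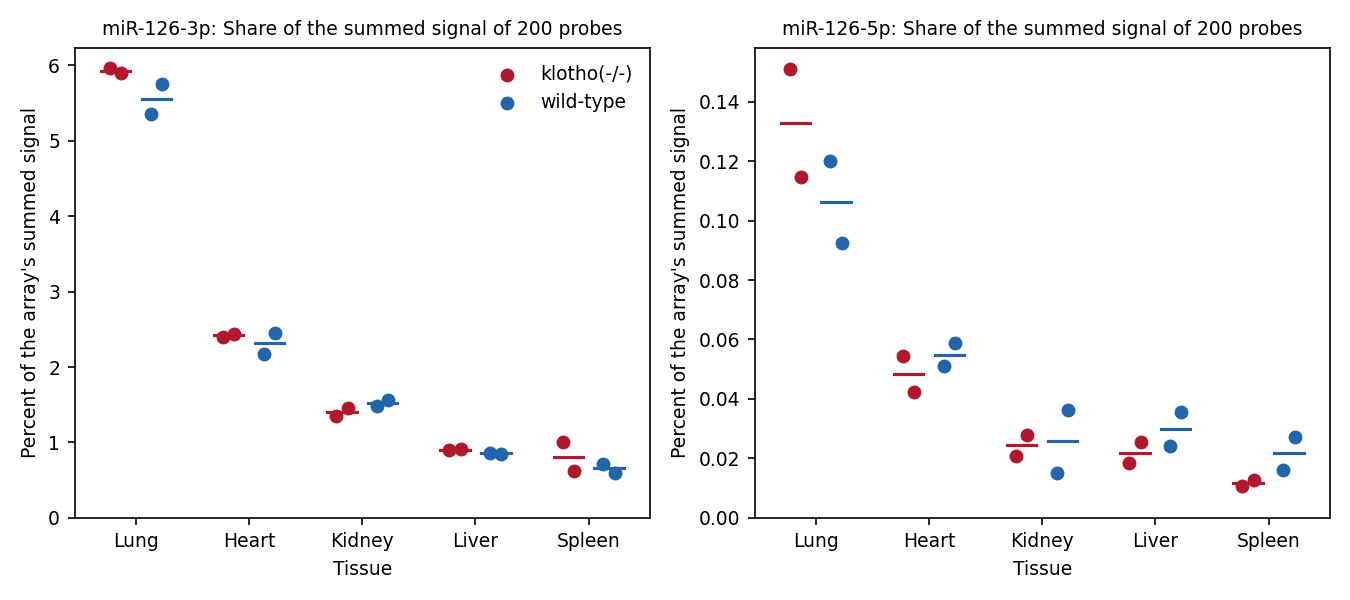
Percent of the summed signal of 200 probes taken by miR-126-3p (left) and miR-126-5p (right) on each array by tissue, klotho(-/-) in red and wild-type in blue, with short lines for means of 2 arrays. Lung arrays sit at 5.36 to 5.97% for miR-126-3p, above heart at 2.17 to 2.45%.

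To place each strand among the tissues, log2 values after quantile normalization over all 20 arrays were compared with limma, genotypes averaged, with Benjamini-Hochberg adjustment over 129 probes. An offset of 50 had been added to every signal, which draws differences of dim probes toward 0. miR-126-3p was higher in lung than in the mean of heart, kidney, liver and spleen, by a log2 difference of 2.50 ± 0.11 (SE, adjusted p = 1.57e-09). This was the largest difference among the 129 probes, of which 29.5% were called higher in lung. At the other end, spleen lay below the mean of the others by -1.92 ± 0.11 (adjusted p = 1.47e-08), the lowest value of the 129 probes, of which 41.1% were called lower in spleen, and by -1.22 with scaling to the sum.

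After quantile normalization the order of levels of miR-126-3p was lung, heart, liver, kidney and spleen. Lung exceeded heart by 1.52 ± 0.14 on the log2 scale (adjusted p = 1.71e-06), where 34.9% of probes were called, and by 0.56 (adjusted p = 0.00245) with median scaling. Heart exceeded liver by 0.94 ± 0.14 (adjusted p = 7.48e-05), where 51.9% were called, and by 2.53 without scaling. Kidney exceeded spleen by 1.05 ± 0.14 (adjusted p = 3.27e-05), where 62% were called. Liver and kidney were not separated, with a difference of 0.03 ± 0.14 and a 95% confidence interval of -0.28 to 0.34 (adjusted p = 0.937), where 48.8% were called. Their order turned with the scaling. With each array scaled to its summed signal, liver minus kidney was -0.57 (adjusted p = 9.77e-05), and without scaling it was -1.41 (adjusted p = 6.47e-05). Liver exceeded spleen by 1.08 ± 0.14 (adjusted p = 2.97e-05), but by 0.20 (adjusted p = 0.0627) with scaling to the sum and -0.07 (adjusted p = 0.804) without scaling, so the order below heart depends on the scaling.

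The dimmer strand followed a similar order after the same normalization. miR-126-5p was higher in lung than in heart by 0.18 ± 0.04 on the log2 scale (adjusted p = 0.000852), and higher in heart than in kidney by 0.22 ± 0.04 (adjusted p = 0.00018), where 38.8% of probes were called. Among the wild-type arrays alone the difference between lung and heart was 0.044 (adjusted p = 0.503), and among the klotho(-/-) arrays alone it was 0.34 (adjusted p = 0.00426). Kidney, liver and spleen lay at or near the floor, and no order is read among them. Kidney and liver differed by 0.04 ± 0.04 (interval -0.04 to 0.11, adjusted p = 0.483). Liver and spleen, where 48.1% of probes were called, differed by 0.06 ± 0.04 (interval -0.01 to 0.14, adjusted p = 0.163). These small differences are set in part by the offset and the scaling: lung minus heart was 0.37 with an offset of 16, 0.11 with an offset of 100, 0.11 with median scaling and 0.72 without scaling.

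The question of the study was which miRNAs differ between klotho(-/-) and wild-type tissue. In deposited signal the mean of miR-126-3p was higher in klotho(-/-) mice in all 5 tissues, by 2.01-fold in liver, 1.5-fold in lung, 1.43-fold in kidney, 1.11-fold in heart and 1.08-fold in spleen. The summed signal of all probes also had a higher mean in klotho(-/-) mice in every tissue except spleen. The ratio of the mean summed signals, klotho(-/-) over wild-type, was 1.91 in liver, 1.56 in kidney, 1.38 in lung, 1.06 in heart and 0.882 in spleen. In liver the numbered pairs gave ratios of 2.69 and 1.5 for miR-126-3p, while the ratio of its mean shares of the summed signal was 1.06. The study listed miR-126-3p as increased in klotho(-/-) liver, by fold changes of such signals in both of its experiments. That list rests on signals without scaling between arrays and on a fold threshold, unlike the limma test given below. The ratio of mean shares was 1.07 in lung, 0.923 in kidney, 1.05 in heart and 1.23 in spleen.

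After quantile normalization within each tissue, miR-126-3p passed the limma test of genotype in none of the 5 tissues. klotho(-/-) minus wild-type was 0.08 ± 0.12 on the log2 scale in lung (SE, adjusted p = 0.784), where 6.19% of the 113 probes tested were called. It was -0.07 ± 0.12 in liver (adjusted p = 1), where 3.28% of probes were called, and -0.07 ± 0.12 in kidney (adjusted p = 0.815), where 7.69% were called. In heart it was -0.04 ± 0.12 (adjusted p = 0.934), where 5% were called. The unadjusted p was under the threshold in none of these tissues and was lowest in spleen, at 0.113. Both klotho(-/-) arrays lay below both wild-type arrays in liver and kidney, where 31.1% and 37.4% of probes did not overlap in one direction or the other. In lung the normalization limits what can be seen, since a probe that is brightest on both klotho(-/-) arrays takes the same value on both.

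The spleen difference of miR-126-3p was 0.21 ± 0.12 (adjusted p = 0.178), where 30.2% of probes were called, and it rested on single arrays. Without the second klotho(-/-) spleen array it was 0.50 (adjusted p = 0.000253), and without the first it was -0.053 (adjusted p = 0.636). The first klotho(-/-) spleen array held miR-126-3p at 1.01% of its summed signal and the second at 0.617%, against 0.718% and 0.601% in wild-type. The leukocyte markers (3 of 4 listed were on the chip, none under 10 on both arrays) summed to 2.74 and 7.32% on the first and second klotho(-/-) arrays and 7.73 to 7.95% on the wild-type arrays. The smooth muscle markers miR-143 and miR-145 summed to 10.9 and 6.52% against 4.32 to 4.97%, and miR-144 of red cell precursors to 0.127 to 0.164% against 2.12 to 4.62%. The first klotho(-/-) array also held the islet marker miR-375 at 1.38%, beside 0.164% on the second and 0.0403 to 0.0683% in wild-type. Epithelial markers summed to 2.04% on the first, 0.34% on the second and 0.246 to 0.266% in wild-type. The part of these cell types in the spleen values of miR-126-3p was not tested.

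Over the 5 tissues the mean difference of miR-126-3p was 0.02 ± 0.06, with a 95% confidence interval of -0.10 to 0.14 (adjusted p = 0.755), where 29.3% of 58 probes were called. An exact two-sided permutation of genotypes within tissues gave p = 0.843, with 0.000257 the smallest it can give over 7776 arrangements. The test that the 5 differences are equal gave F = 1.01 (adjusted p = 0.638), where 24.1% of probes were called, and F = 9.27 (adjusted p = 0.00617) without the second klotho(-/-) spleen array.

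**Figure D3:**
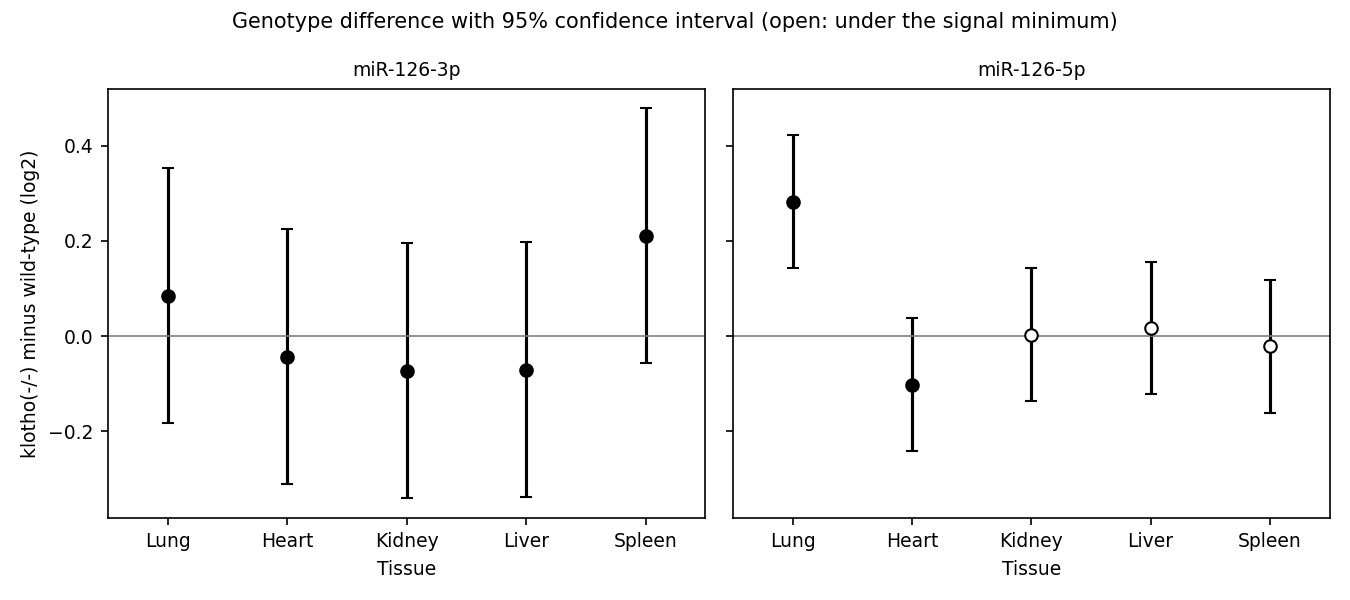
Difference klotho(-/-) minus wild-type on the log2 scale after quantile normalization within a tissue, for miR-126-3p (left) and miR-126-5p (right), with the 95% confidence interval of the limma fit (2 arrays against 2 per tissue). Open symbols are tissues in which miR-126-5p was under the signal minimum and was not tested, and the interval for miR-126-5p in lung, 0.14 to 0.42, lies above 0.

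miR-126-5p was called higher in klotho(-/-) lung. The normalized signals were 70.8 and 57.4 in klotho(-/-) mice and 49.9 and 37.8 in wild-type mice, which did not overlap. Such a separation with klotho(-/-) higher was seen for 22.1% of the 113 probes tested in lung. The difference was 0.28 ± 0.06 on the log2 scale (95% confidence interval 0.14 to 0.42, adjusted p = 0.0217), where 3.54% of probes were called higher. This SE and interval use a spread pooled over all tissues, including kidney, liver and spleen, where the strand lay at or near the floor. In those tissues fitted alone the SE was 0.035, 0.012 and 0.014. With lung fitted alone the SE was 0.12 and limma did not call the difference (adjusted p = 0.344). Before normalization the groups overlapped, with 57 on one klotho(-/-) array and 62 on one wild-type array. As shares of the summed signal they were 0.151 and 0.115% in klotho(-/-) mice against 0.120 and 0.0925% in wild-type mice, which overlapped too.

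This call depended on the settings. It was 0.17 (adjusted p = 0.218) with scaling to the summed signal, 0.17 (adjusted p = 0.175) with quantile normalization over all 20 arrays, and 0.29 (adjusted p = 0.017) with median scaling within the tissue. Without klotho(-/-) lung array 1 it fell to 0.14 (adjusted p = 0.389), and without wild-type lung array 2 it was 0.21 (adjusted p = 0.094). In lung the 3 leukocyte markers on the chip summed to 0.338 to 0.422% in klotho(-/-) mice and 0.52 to 0.655% in wild-type mice, and the striated muscle markers to 0.497 to 0.528% against 0.651 to 1.15%. In each genotype 0 of the leukocyte probes and 1 of the 5 striated muscle probes were under 10 on both arrays. Epithelial markers summed to 1.41 to 1.46% in klotho(-/-) lung against 1.53%. Smooth muscle markers (5.16 to 6.26% against 5.21 to 5.49%) and miR-144 of red cell precursors (0.394 to 0.434% against 0.32 to 0.412%) overlapped. No tested probe of these lists was called in lung. The part of these cell types in the lung value of miR-126-5p was not tested.

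In heart miR-126-5p differed by -0.10 ± 0.06 (interval -0.24 to 0.04, adjusted p = 0.651), with both klotho(-/-) arrays below both wild-type arrays after normalization (11.3 and 10.9 against 15.2 and 15.95), a separation in either direction that 43% of heart probes had. Before normalization the groups overlapped, with deposited signals of 17 and 9 in klotho(-/-) mice against 13 and 14 in wild-type mice. In kidney, liver and spleen the strand was under the minimum and was not tested. Over all 5 tissues its mean difference was 0.04 (exact permutation p = 0.474), which includes these tissues at or near the floor.

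In the ratio of miR-126-3p to miR-126-5p within an array, a factor common to all its probes cancels. Probes differ in brightness per molecule, so it is no ratio of molecules and was compared between arrays only. In lung, where both strands were well measured, miR-126-3p was brighter by 39.4 and 51.8 times in klotho(-/-) mice and by 44.7 and 63.5 times in wild-type mice, which overlapped. The lung ratio was lowest on the array with the highest summed signal (57568) and highest on that with the lowest (25953), and the part of brightness in it was not tested. In heart the ratio was 46.2 and 54.3 in klotho(-/-) mice and 40.6 and 40.5 in wild-type mice, which did not overlap. The ratio of 54.3 rests on a miR-126-5p signal of 9, under the minimum. An exact permutation test of genotype in heart gave p = 0.333, the smallest that so few arrays can give. That test thus cannot decide whether the heart ratio differs between genotypes. On the log2 scale the ratio was 5.62 ± 0.30 (SD, n = 4) in lung and 5.49 ± 0.20 in heart.

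In the other tissues the ratio rested on miR-126-5p signals of 5 or less, and in liver and spleen on signals at the floor. It ran from 43.3 to 79.6 in kidney, from 27.9 to 47.8 in liver and from 37.6 to 77.7 in spleen. Exact permutation tests of 4 against 4 arrays, two-sided, called none of the 10 pairs of tissues. The smallest p that such a test can give is 0.0286 before adjustment, and the lowest adjusted p was 0.228. With adjustment over 10 pairs, a single pair alone at 0.0286 would not pass the threshold. The tests thus cannot decide whether a single pair of tissues differs, and the lack of a call does not show equal ratios. Liver minus spleen was the widest difference, -0.84 on the log2 scale (exact p = 0.0571), and lung minus heart was 0.12 (exact p = 0.571, adjusted p = 0.634).

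**Figure D4:**
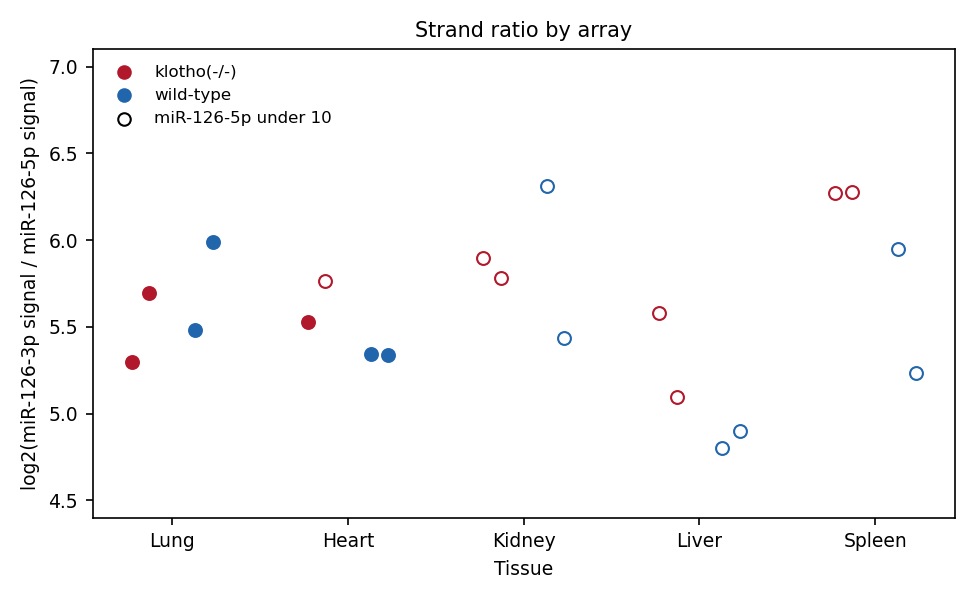
log2 ratio of the signals of miR-126-3p and miR-126-5p on each of 20 arrays by tissue, klotho(-/-) in red and wild-type in blue. Filled symbols are the 7 arrays on which miR-126-5p reached a signal of 10, which lie between 5.30 and 5.99, and the open symbols of the remaining arrays spread more widely.

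Between genotypes the log2 strand ratio, klotho(-/-) minus wild-type, was -0.24 in lung, 0.30 in heart, -0.04 in kidney, 0.49 in liver and 0.68 in spleen. A single tissue with 2 arrays against 2 cannot give an exact p under 0.333. The mean over tissues was 0.24, and an exact two-sided permutation of genotypes within tissues gave p = 0.131. In lung and heart alone, a choice made after the values were seen, it was 0.03 (exact p = 0.889). With so few arrays that test cannot give a p under 0.05, so it does not show equal ratios. Over the 7 arrays with miR-126-5p at 10 or more, which lack klotho(-/-) heart array 2, the mean difference was -0.025.

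The spread of the miR-126 ratio was set beside that of other strand pairs on the chip, as a description. Over the 7 arrays with both miR-126 strands at 10 or more, its log2 values spanned 0.69, with a median gap of 0.39 between the 2 arrays of a group. For miR-30a, a widely expressed miRNA whose 5p strand is the brighter one, 12 arrays spanned 0.53 with a median gap of 0.06. The 16 arrays of miR-199a, a miRNA of mesenchymal cells, spanned 0.39 with a median gap of 0.02. For miR-142, the leukocyte miRNA, 9 arrays spanned 0.90 with a median gap of 0.31. The median gap of the miR-126 ratio was thus wider than that of these 3 pairs, but it rests on 3 groups that differ. In lung the log2 ratios were 5.30 and 5.69 in klotho(-/-) mice and 5.48 and 5.99 in wild-type mice. In wild-type heart they were 5.342 and 5.340, nearly the same. The other pairs ran from a median gap of 0.02 (miR-291a, 4 arrays) to 0.46 (miR-324, 5 arrays).

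Across the 20 arrays the probe most like each strand was the other strand, with Pearson r = 0.94 and Spearman rho = 0.86 over normalized log2 values. These 20 points share tissues, and with the tissue means removed the correlation of the strands was 0.33, close to that of miR-126-3p with miR-23a (0.34). miR-126-5p stood at the floor on 9 of the 20 arrays, where its values have no order, which limits these correlations. After the other strand came, for miR-126-3p, miR-34b (r = 0.86), miR-34c (0.85), miR-23a (0.82) and miR-497 (0.80). For miR-126-5p the same 4 probes followed, led by miR-497 (r = 0.85). All 4 were brightest in lung. miR-34b and miR-34c, which are made from one primary transcript and are known from multiciliated cells, gave 118 to 237 and 91 to 195 in lung and at most 17 and 12 elsewhere. miR-23a, a member of a cluster with miR-27a and miR-24, gave 826 to 1801 in lung and up to 562 elsewhere.

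Other miRNAs described in endothelial cells or in vessel growth were counted beside miR-126. Of 26 listed, 20 were on the chip. In lung 17 were tested, 0 were called higher and 1 was called lower, near the 6.19% called among all probes, with a median difference of 0.00 on the log2 scale beside 0.01 over all probes tested. The one that fell was miR-146, a miRNA induced by NF-kappaB, which differed by -0.35 ± 0.08 (adjusted p = 0.0217). None of the 12 tested in liver, the 18 in kidney or the 17 in heart was called by limma, where 3.28%, 7.69% and 5% of all probes were called. Of them 1, 1 and 2 had an unadjusted p under 0.05, which 11.5%, 13.2% and 12% of all probes had.

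In spleen, where 30.2% of all probes were called, 2 of the 17 tested endothelial miRNAs were higher and 4 lower in klotho(-/-) mice. The higher ones were miR-23b (0.37 ± 0.11, adjusted p = 0.0249) and miR-27a (0.30 ± 0.11, adjusted p = 0.0495), both of miR-23/27/24 clusters. Those that fell include miR-20a (-0.70 ± 0.10, adjusted p = 0.000176) and miR-18 (-0.64 ± 0.06, adjusted p = 2.21e-05), along with miR-19a and miR-92, all names of the miR-17-92 cluster that is known to promote the growth of lymphocytes. The median over the 17 was 0.07, beside 0.05 over all probes tested in spleen. The marker sums given above for spleen hold here too, and their part in these values was not tested.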

How the data were processed

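Small RNA of 20 tissue samples had been labelled with 1 dye and hybridized to the chip. The authors deposited 2 tables of fluorescence intensity: raw values, and whole numbers after a constant per array had been subtracted, with low values set to a floor and no scaling between arrays. The second is called deposited signal here. Raw intensities were corrected with normexp (limma 3.58.1, R 4.3.3, offset of 50), quantile-normalized within a tissue (genotype) or over 20 arrays (tissues) and taken to log2. One limma model of 10 groups with eBayes trend was fitted to all 200 probes, with Benjamini-Hochberg adjustment within a contrast over probes with a mean signal of at least 10 and a threshold of 0.05. The spread of a probe was pooled over all tissues, so the SE of its genotype difference is the same in every tissue. Strand ratios used normexp signals with no offset.

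The tissues of a mouse were taken as independent. Arrays of one number deviated together across genotypes within each tissue, with correlations of 0.55 in liver, 0.48 in kidney, 0.37 in spleen, 0.23 in lung and 0.11 in heart. This pairing comes from the values. The members, lists and most like probes followed rules chosen with earlier results of these data known, and the fits were tested on simulated data. The alternatives were other scalings, offsets, filters and blocks, the second table, Student's test, and each array left out.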

Additional observations from a re-analysis of the deposited data

Results flagged for a closer look

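Among the tissues in which a strand was tested, there were 3 instances in which all klotho(-/-) arrays lay above wild-type in one tissue and below it in another after normalization. Separation with klotho(-/-) higher held for 22.1% of lung probes, and in either direction for 31.1% in liver, 37.4% in kidney and 43% in heart. The share of probes separated in opposite directions was not counted. The pairs were picked by this separation, so a p from the same values takes no account of the choice. For miR-126-5p the genotype difference in lung exceeded that in heart by 0.38 ± 0.09 on the log2 scale. Tested in the same limma fit, this had an unadjusted p of 0.00112 and an adjusted p of 0.102 over 91 probes, of which 0 were called and 7 had an unadjusted p under 0.05. Leaving out single lung arrays moved it from 0.24 (adjusted p = 0.612, without klotho(-/-) lung array 1) to 0.48 (adjusted p = 0.00623, without wild-type lung array 1), and without klotho(-/-) lung array 2 it was 0.46 (adjusted p = 0.0158). For miR-126-3p the lung difference exceeded that in liver by 0.15 and that in kidney by 0.16. The F test that all 5 differences are equal gave an adjusted p of 0.638 for this strand, and the single pairs were not tested.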

How the results depend on the processing

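Of 421 values under alternatives, 381 kept their side of the threshold and, apart from 4 untested ones, their direction, 13 lost and 6 gained a call, and 21 changed sign. Of 840 values with 1 array left out, 827 kept both apart from 1 untested value, 2 lost and 3 gained a call, and 8 changed sign. Part of the 840 values could not move. A genotype difference within a tissue is normalized there, so leaving out an array of another tissue changes its SE and p only. Values without a test had no call to lose, here and under the alternatives. The counts are thus no measure of stability. The call of miR-126-5p in lung was lost without scaling (0.42, adjusted p = 0.167, where the median probe moved by 0.34), with scaling to the sum (0.17, 0.218), with quantile normalization over 20 arrays (0.17, 0.175), with an offset of 16 (0.42, 0.135), in lung alone (0.28, 0.344) and by the methods' t-test on the same values (0.28, 0.611). With 1 array left out it ran from 0.14 to 0.38. With the replicate number as a block it was 0.28 (0.0104), and the block changed no call of either strand. miR-126-3p in spleen ran from -0.053 to 0.50, its F from 0.56 to 9.27, and the strand ratio between genotypes from 0.15 to 0.33 with 1 array left out, the last with an exact p of 0.0216 without wild-type kidney array 1. Over the arrays with both strands at 10 or more that ratio difference turned to -0.025. With 1 array left out, miR-126-3p ran from -0.13 to 0.052 in heart and from -0.031 to 0.079 over tissues, and the ratio from -0.0016 to 0.23 for lung minus heart and from -0.31 to 0.065 for kidney minus spleen. The genotype difference of miR-126-3p, under no call, turned without scaling in liver (0.54), kidney (0.42) and heart (0.12), with scaling to the sum in liver (0.047) and heart (0.065), with median scaling in heart (0.18) and, over tissues, without the spleen arrays (-0.026). The causes were not tested.

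Between tissues, miR-126-3p in liver minus kidney turned to -1.41 without scaling and -0.57 with scaling to the sum. Without scaling, miR-126-3p in kidney was -0.38 (0.112) from the other tissues, miR-126-5p in heart 0.025 (0.876), and miR-126-5p in heart minus kidney 0.22 (0.155). With scaling to the sum miR-126-5p in heart was 0.038 (0.237), and with median scaling liver minus spleen was 0.13 (0.00266). Median scaling also turned liver minus kidney of miR-126-3p (-0.066) and kidney minus liver of miR-126-5p (-0.058, and -0.0017 with scaling to the sum). In wild-type alone, lung minus heart of miR-126-5p was 0.044 (0.503), and in klotho(-/-) alone heart against the others was 0.51 (0.0951) for miR-126-3p and 0.093 (0.163) for miR-126-5p. With the second table the strand ratio turned for lung minus spleen (0.077) and kidney minus spleen (0.41, and 0.075 with quantile normalization). An offset of 50, added to both strands, makes a ratio grow with brightness by its construction. The ratio then differed between genotypes by 0.27 (0.0154), and between tissues by 3.52 for lung minus liver, 2.19 for lung minus kidney, 1.28 for lung minus heart, 3.43 for lung minus spleen, -1.33 for liver minus kidney, -2.24 for liver minus heart, -0.91 for kidney minus heart, 1.24 for kidney minus spleen and 2.15 for heart minus spleen. miR-126-5p passed the minimum in 2 tissues, so its mean over tissues and the equality of its differences were not tested by limma. Without the filter they had adjusted p of 0.573 and 0.102.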
